A study of Glycine max with 46 samples.

Results

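Glyma.13G035200 and Glyma.04G240800, both described as alcohol dehydrogenase 1, and Glyma.11G121800, described as hemoglobin 1, were followed through 46 soybean (Glycine max) RNA sequencing libraries. They are 3 of 56044 genes. They were picked by name, with their levels in these libraries already known, as low-oxygen genes whose levels differed between flooded and unflooded roots, hilum and coat, coats of different seed weight, UC508 and UC501, leaf and flower. Values from those contrasts are therefore given as description, without a test. Each gene was read from its transcript model with the longest cDNA, of 1675 bases for Glyma.13G035200, 1502 for Glyma.04G240800 and 1011 for Glyma.11G121800. The gene IDs place them on chromosomes 13, 4 and 11, and no coordinates were used here.

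When oxygen runs short, plant cells cannot run mitochondrial respiration and regenerate NAD+ by fermentation. Pyruvate decarboxylase turns pyruvate into acetaldehyde, and alcohol dehydrogenase reduces acetaldehyde to ethanol. Class 1 plant hemoglobins bind oxygen very tightly and are known for removing nitric oxide in hypoxic tissue. In roots these genes are textbook markers of flooding, and bulky developing seeds are also known to be low in oxygen. The seed coat is the maternal tissue around the embryo, and the hilum is the scar where the seed was attached to the pod.

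Flooded roots came from seedlings of the Williams line W43 (genotype i-i RT w1) aged 5 days, with 1 library after 12 h and 1 after 24 h under water. Unflooded roots came from greenhouse plants aged 4 weeks, 1 library of W54 (labelled as the same line as W43) and 1 of W55, a Williams i mutant with a 138 kb deletion (iRT w1). Hilum and coat without hilum were dissected from W43 seeds of 25-50 mg and 50-100 mg, with 2 libraries per tissue and weight. Coats of stated seed weight came from T157 (i R t, 4 libraries) and its yellow-coated counterpart Richland (I R t, 4), and from the Williams i mutants W44 (iRT w1, an i inversion, 6) and W55 (2 late libraries and 2 of 5-6 mg seeds), set against W43 (5). The late W55 coats carry the genotype label of W43, i-i RT w1, beside a cultivar label that names the i mutation, whereas the 5-6 mg W55 coats are labelled i R w1. Single coat libraries came from UC508, a Harosoy isoline with defective coats (I r T W1, Def, net), from the Harosoy line UC501 (I r T W1), from UC9, a Clark i mutant with the 138 kb deletion (i R T W1), and from RM38, a Clark i isoline with brown coats (i r T W1). Whole seeds 5 days after flowering (W55, 2 libraries; T157 and Richland, 1 each), leaves of 4-week T157 and Richland plants and a flower of a Williams W1 isoline completed the set.

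Levels are the authors' RPKM, counted reads divided by the length of the cDNA in kilobases and by the library's alignments in M (M, 1000000), so they can be compared between genes. The libraries held 18.1 to 545 M alignments. In 43 libraries 7.58% to 18.0% of the alignments fell in models with no description. The 2 W55 coat libraries of 5-6 mg seeds stood apart at 88.6% and 80.6%, and so did the W44 coat library of 50-100 mg seeds, at 56.2%, which lowers the RPKM of every other gene in them. In bulk tissue, fewer cells of a type and less RNA per cell cannot be told apart.

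The 3 genes were highest in different places. Glyma.04G240800 and Glyma.11G121800 were highest in flooded roots, while Glyma.13G035200 was highest in the coat of young seeds and close to absent from roots. Glyma.13G035200 was listed at 0 in both leaves and in the W54 root, where a count of 0 allows up to 3 reads, or RPKM values of 0.00871 (T157 leaf), 0.00802 (Richland leaf) and 0.00723 (W54 root).

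**Figure D1:**
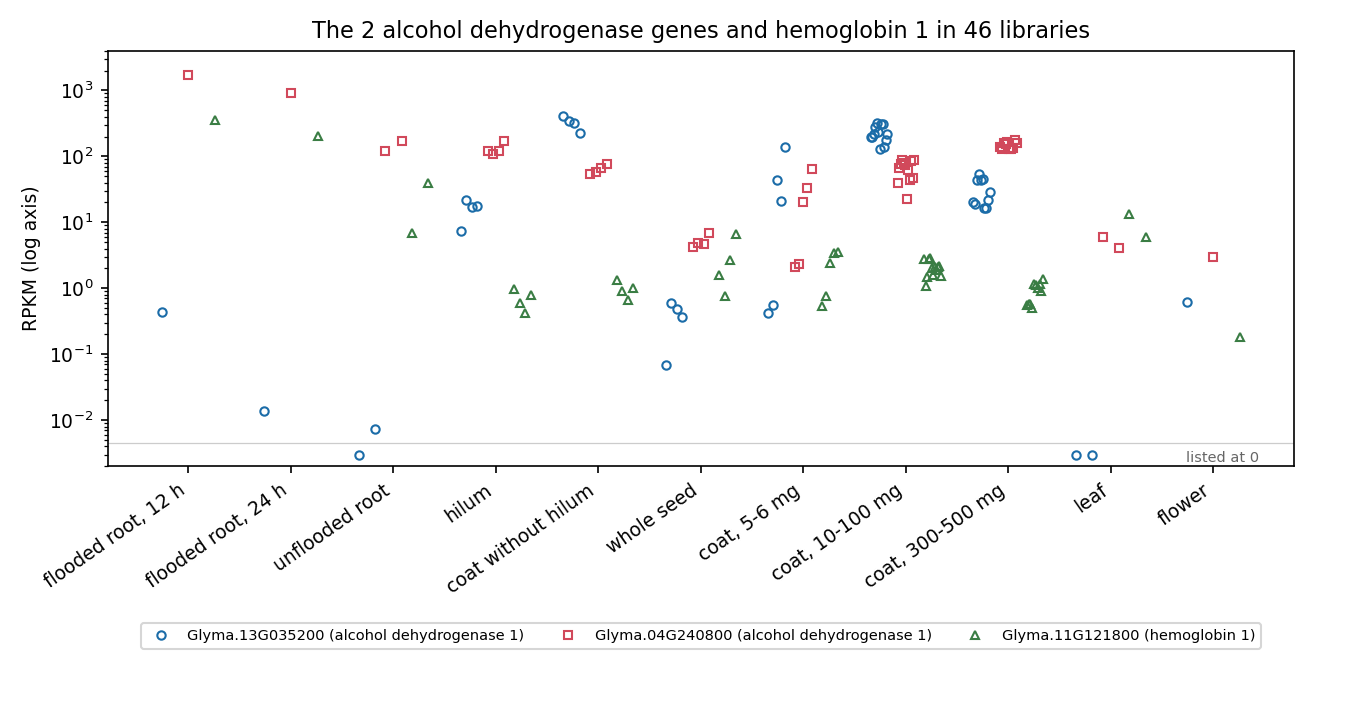
RPKM on a log axis of Glyma.13G035200 (circles), Glyma.04G240800 (squares) and Glyma.11G121800 (triangles), 1 point per library, in 11 kinds of sample; points under the grey line were listed at 0. Glyma.04G240800 reached 1694 and 926 RPKM in the flooded roots, and Glyma.13G035200 lay between 130 and 322 in the 12 coat libraries of 10-100 mg seeds.

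In roots, the question was how far the fermentation enzyme and the hemoglobin differ between flooded seedlings and unflooded plants. Glyma.04G240800 was at 1694 RPKM after 12 h and 926 RPKM after 24 h of flooding, against 123 RPKM in the unflooded W54 root and 173 RPKM in the unflooded W55 root. The lower flooded library was thus 5.35 times the higher unflooded one, and the flooded roots were the highest of all 46 libraries. Glyma.11G121800 was at 355 RPKM after 12 h and 207 RPKM after 24 h, against 6.96 RPKM (W54) and 39.3 RPKM (W55) in unflooded roots. Its closest pair, 24 h of flooding over W55, differed 5.27-fold and its widest, 12 h over W54, 51.1-fold. The 2 unflooded roots themselves differed 5.65-fold in this hemoglobin and 1.41-fold in Glyma.04G240800, W55 over W54. Glyma.13G035200 had 138 reads after 12 h (0.430 RPKM, 95% Poisson interval 0.361 to 0.508) and 4 reads after 24 h (0.0136 RPKM, 0.00372 to 0.0349), against 0 reads in W54 and 3 reads in W55 (0.00724 RPKM, 0.00149 to 0.0212). Glyma.13G035200 was therefore detected in the 12 h root, a single library, and did not pass the filter of a mean RPKM of 1.

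Both passing genes were lower after 24 h than after 12 h of flooding, by log2 −0.87 for Glyma.04G240800 and −0.78 for Glyma.11G121800 on the log2(RPKM + 1) scale. Each time point is 1 library, so these 2 values have no replicate check. Flooded and unflooded roots also differ in age (5 days against 4 weeks) and in the range of their library numbers, whose meaning the labels do not state, and the W55 root in genotype. Flooding, age and library series cannot be told apart here.

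Counting a gene as higher when it was at least 2-fold higher in every pair of a flooded and an unflooded library, 8.02% of 31522 genes were higher in flooded roots and, by the same rule, 7.51% were lower. Both passing genes were among the higher ones, by the contrast that chose them. All 3 other passing genes described as alcohol dehydrogenase 1 were higher as well. Glyma.06G122600 was at 1297 and 736 RPKM in the flooded roots (12 h, 24 h), against 96.3 and 136.1 RPKM in the unflooded roots (W54, W55). Glyma.04G213900 was at 260 and 112 RPKM in the flooded roots, against 0.499 and 0.810 RPKM in the unflooded roots. Glyma.14G121200 was at 229.5 and 117 RPKM in the flooded roots, against 0.330 and 0.362 RPKM in the unflooded roots. These last 2 genes were nearly silent in unflooded roots, so their log2 differences of 6.70 and 6.94 exceeded the 3.10 of Glyma.04G240800, although their flooded levels were lower.

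Pyruvate decarboxylase, the step before alcohol dehydrogenase, was measured in the same roots. Of 11 passing pyruvate decarboxylase genes 7 were higher in flooded roots and 0 lower, with a median log2 difference of 3.65 against −0.02 over all genes. Glyma.15G080800 was at 50.4 and 22.3 RPKM after 12 and 24 h, against 0.0639 (W54) and 0.115 RPKM (W55) in unflooded roots. Glyma.03G055100 reached 55.5 and 21.7 RPKM in flooded roots, against 0.195 and 0.184 RPKM in unflooded roots. Glyma.01G118000 reached 52.3 and 17.5 RPKM in flooded roots, against 0.104 and 0.0914 RPKM in unflooded roots. As with the alcohol dehydrogenases, these 3 were lower after 24 h than after 12 h. Of the 4 that did not pass, Glyma.02G238800 (log2 −0.65) and Glyma.14G207700 (−0.79) had lower values in flooded roots.

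Other fermentation and sugar genes were mixed. Sucrose synthase, which opens sucrose for glycolysis, had 4 of 11 passing genes higher and 0 lower. Its gene Glyma.19G212800 was at 199 and 112 RPKM in flooded roots, against 10.9 and 11.2 RPKM in unflooded roots, and Glyma.03G216300 differed by the same log2 3.65. Glyma.15G182600, sucrose synthase 4, differed by log2 2.01. Of 10 genes described as lactate/malate dehydrogenase family, a description that does not tell lactate from malate dehydrogenase, 3 were higher and 0 lower. Glyma.02G005500 was at 179 and 190 RPKM in flooded roots, against 33.4 and 34.5 RPKM in unflooded roots, and Glyma.10G006500 differed by log2 2.28. None of 10 genes described as alanine or alanine:glyoxylate aminotransferase passed the 2-fold rule in either direction, although their median log2 difference was 0.80. The most abundant were Glyma.01G129400 (33.5 and 32.1 RPKM flooded, 50.6 and 40.7 RPKM unflooded) and Glyma.07G045900 (55.4 and 32.7 RPKM flooded, 22.3 and 19.6 RPKM unflooded).

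**Figure D2:**
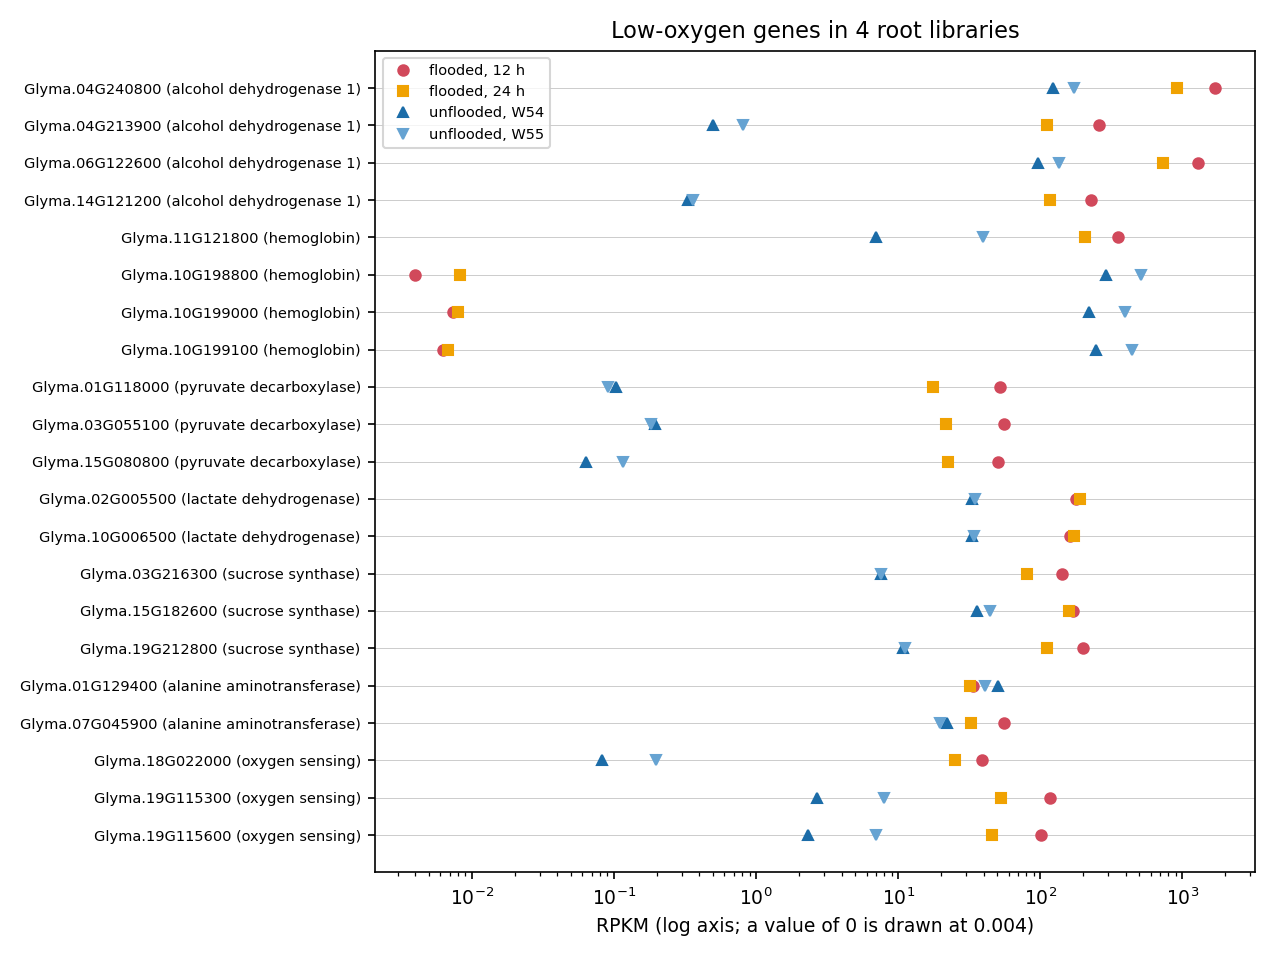
RPKM on a log axis in the 2 flooded and 2 unflooded root libraries, for Glyma.04G240800, Glyma.11G121800 and genes of the low-oxygen lists, with 3 oxygen-sensing genes at the bottom; a value of 0 is drawn at 0.004. The 4 alcohol dehydrogenase 1 genes shown and hemoglobin 1 lie to the right in both flooded libraries, and the 3 haemoglobin 2 genes shown lie above 200 RPKM in the unflooded libraries only, among these 4.

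Hemoglobin genes did not move as one family in roots. Of the 6 passing hemoglobin genes other than Glyma.11G121800, 1 was higher in flooded roots and 4 were lower. The higher one was Glyma.14G140400, described as hemoglobin 3, at 23.1 and 22.8 RPKM in flooded roots, against 7.66 and 7.72 RPKM in unflooded roots. The 4 lower ones are all described as haemoglobin 2, the class that includes the oxygen carriers of legume root nodules. Glyma.10G198800 was at 0 and 0.00830 RPKM in flooded roots, against 292 (W54) and 513 RPKM (W55) in unflooded roots. Glyma.10G199100 and Glyma.10G199000 were at most 0.00681 and 0.00805 RPKM in flooded roots, against 247.1 and 444 RPKM, and 222 and 397 RPKM, in unflooded roots. In the W55 root, which also had the higher Glyma.11G121800, each of these 3 was higher than in the W54 root. The genes Glyma.10G198800, Glyma.10G199000 and Glyma.10G199100 carry neighbouring IDs and may share reads.

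Other tissue markers also differed between the root groups. The summed RPKM of 44 leaf genes (light-harvesting and Rubisco small subunit descriptions) was 243.5 and 386 in flooded roots and 32.9 and 42.1 in unflooded roots, against 23810 and 50090 in leaves (T157, Richland). The summed RPKM of 271 genes with oleosin, cupin or seed storage descriptions was 12670 and 18120 in flooded roots and 2982 and 3273 in unflooded roots. A set of 242 genes with nodulin, leghemoglobin or haemoglobin 2 descriptions summed to 1141 and 1350 in flooded roots and 2062 and 2845 in unflooded roots. The 237 of them not described as haemoglobin 2 differed less, at 1141 and 1350 in flooded roots and 1115 and 1137 in unflooded roots. Those 237 summed to 1369 to 3115 in coats of 300-500 mg seeds, so they do not mark nodules alone. The part of these differences in the results on the 3 genes was not tested.

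The hilum was compared with the rest of the same coats, where Glyma.13G035200 and Glyma.04G240800 went in opposite directions. Glyma.13G035200 was at 7.29 and 21.6 RPKM in the hilum of 25-50 mg seeds and 17.4 and 17.4 RPKM in that of 50-100 mg seeds, against 407 and 340 RPKM and 321 and 230.0 RPKM in the coat without hilum of the same weights. The groups did not overlap. The hilum averaged 15.9 ± 6.1 RPKM and the coat 325 ± 73 RPKM (SD, n = 4 libraries each), a log2 difference of −4.33. Glyma.04G240800 was at 121 and 110 RPKM (25-50 mg) and 119 and 168 RPKM (50-100 mg) in the hilum, against 53.9 and 58.3 RPKM and 65.8 and 78.0 RPKM in the coat. Every hilum library was above every coat library, with means of 129.5 ± 26.5 RPKM in the hilum and 64.0 ± 10.55 RPKM in the coat (SD, n = 4 each) and a log2 difference of 1.00. The ratio of Glyma.13G035200 to Glyma.04G240800 was therefore 0.0604 to 0.197 in the hilum and 2.95 to 7.56 in the coat.

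Glyma.11G121800 was low in both tissues and failed the filter. It was at 0.420 to 0.975 RPKM in the hilum and 0.661 to 1.32 RPKM in the coat, from 50 to 145 reads per hilum library. The groups overlapped, although the hilum was lower in 4 of 4 pairs of the same weight and library series, with log2(RPKM + 1) differences of −0.25 to −0.18.

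Against a background of 13.4% of 29296 genes higher and 26.6% lower in the hilum (limma, Benjamini-Hochberg adjusted p under 0.05), 1 of the 3 other passing alcohol dehydrogenase 1 genes was higher and 1 lower. Those are 3930 and 7794 genes, and 5582 and 5309 once the libraries were rescaled by their median ratio; the median gene differed by log2 −0.11. Glyma.06G122600 rose to 94.9 ± 18.2 RPKM in the hilum, against 50.0 ± 7.1 RPKM in the coat (SD, n = 4 libraries). That is a log2 difference of 0.90 ± 0.13 SE (limma adjusted p = 0.00187). Glyma.14G156400 fell to 44.0 ± 22.0 RPKM in the hilum, against 636 ± 94 RPKM in the coat (log2 −3.98 ± 0.40 SE, limma adjusted p = 0.000348). Glyma.06G122600 and Glyma.14G156400 have patterns close to those of Glyma.04G240800 and Glyma.13G035200, which this contrast chose, and may share reads with them. Their p-values are therefore no separate support. Glyma.14G121200, the gene that was nearly silent in unflooded roots, had means of 7.78 RPKM in the hilum and 6.67 RPKM in the coat, with overlapping groups. Glyma.04G213900, its counterpart in flooded roots, was at most 0.00817 RPKM in the hilum and 0.0128 RPKM in the coat.

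**Figure D3:**
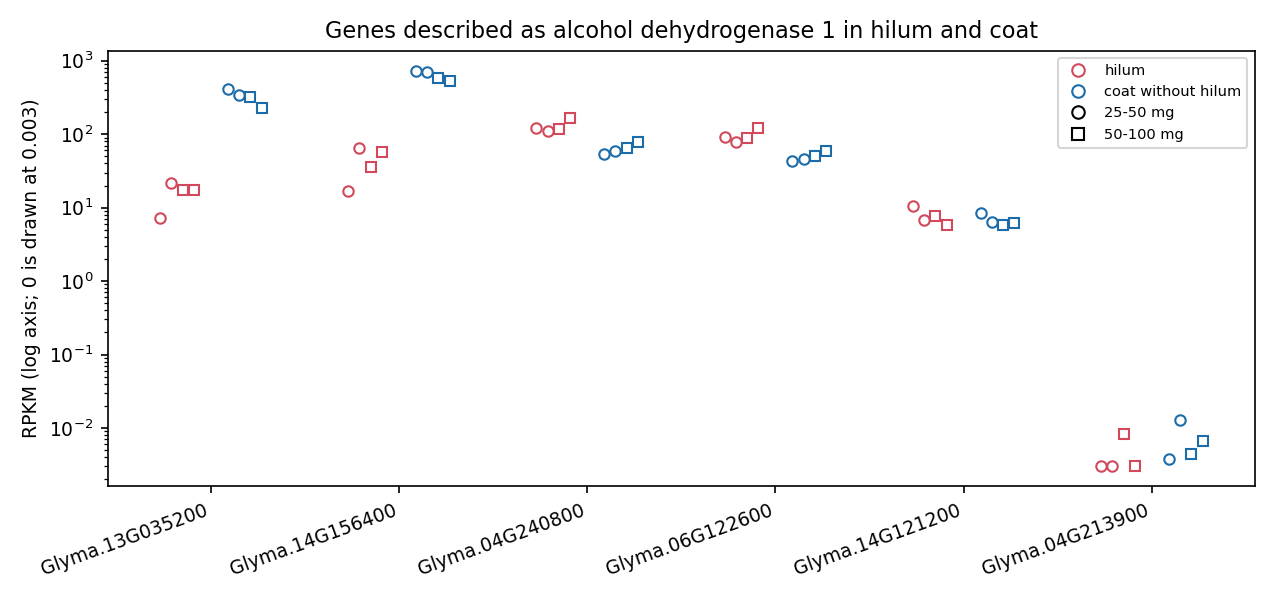
RPKM on a log axis of the 6 genes described as alcohol dehydrogenase 1, in 4 hilum libraries (left of each pair, red) and 4 coat libraries (right, blue); circles are 25-50 mg and squares 50-100 mg seeds. Glyma.13G035200 and Glyma.14G156400 are lower in every hilum library, and Glyma.04G240800 and Glyma.06G122600 higher, without overlap.

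The step before alcohol dehydrogenase gave no call in the hilum. None of 9 passing pyruvate decarboxylase genes was called in either direction (limma, adjusted p under 0.05; 0 at an unadjusted p under 0.05), with differences between log2 −0.28 and 0.32. The most abundant, Glyma.18G204200, had 27.2 RPKM in the hilum and 21.4 RPKM in the coat (log2 0.32 ± 0.17 SE, limma adjusted p = 0.17), and passed only without 1 of the 50-100 mg hilum libraries (adjusted p = 0.0192). Glyma.07G153100 had 18.6 RPKM in the hilum and 17.0 RPKM in the coat (limma adjusted p = 0.47). Of 8 lactate/malate dehydrogenase genes 0 rose and 2 fell, Glyma.17G140600 by log2 −1.01 ± 0.21 SE (limma adjusted p = 0.00785) and Glyma.05G058100 by −0.71 ± 0.23 SE (adjusted p = 0.0428, up to 0.116 under 9 of 14 alternative settings that ended the call). Of 11 genes described as alanine or alanine:glyoxylate aminotransferase, which move amino groups to and from pyruvate, 1 rose and 5 fell. Among those named, Glyma.08G140200, an alanine:glyoxylate aminotransferase 2 gene, was at 14.1 RPKM in the hilum and 25.4 RPKM in the coat (log2 −0.79, limma adjusted p = 0.00178). The calls of Glyma.05G182600, also alanine:glyoxylate aminotransferase 2 (−0.63), and Glyma.16G013900, alanine aminotransferase 2 (−0.43), were lost under 6 and 5 of 14 alternatives, with limma adjusted p up to 0.0852 and 0.123.

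Sucrose synthase and hemoglobin differed little between the tissues. Of 9 sucrose synthase genes 2 rose, both under the minimum of 5 RPKM used for naming, and 0 fell. The most abundant were Glyma.13G114000, with 180 RPKM in the hilum and 213.3 RPKM in the coat (limma adjusted p = 0.297), and Glyma.17G045800, with 118 RPKM in the hilum and 131 RPKM in the coat (limma adjusted p = 0.432). The only passing hemoglobin was Glyma.14G140400, with 4.24 RPKM in the hilum and 3.95 RPKM in the coat (log2 0.09 ± 0.16 SE, limma adjusted p = 0.686).

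Tissue markers moved with the dissection. The summed RPKM of 26 vascular wall genes (xylem and cellulose synthase family descriptions) was 762 to 1552 in the hilum and 168.5 to 631 in the coat, with 21 and 16 of the 26 reaching an RPKM of 1. The 271 oleosin, cupin and storage genes summed to 2091 to 2435 in the hilum and 3462 to 5656 in the coat. The part of these differences in the results on the alcohol dehydrogenases was not tested.

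As seeds grew, the balance of the 2 alcohol dehydrogenases in the coat turned over. In 12 coat libraries of 10-100 mg seeds Glyma.13G035200 was at 130 to 322 RPKM (median 217.3), and in 10 libraries of 300-500 mg seeds it was at 16.4 to 54.3 RPKM (median 25.3). Glyma.04G240800 went the other way, at 22.4 to 87.3 RPKM (median 69.8) in the younger coats and 129.04 to 180 RPKM (median 147.1) in the later ones. Neither gene's ranges overlapped between the weight classes. Coat weight was among the contrasts that chose these genes. The share of all genes with such a gap was not computed, so the gap is description only. Without the W44 library of 50-100 mg seeds that stood apart, the lowest younger coats held 139.2 RPKM of Glyma.13G035200 and 39.1 RPKM of Glyma.04G240800. The ratio of Glyma.13G035200 to Glyma.04G240800 was 1.61 to 7.17 (median 3.47) in the younger coats and 0.120 to 0.349 (median 0.163) in the later ones, so the more abundant of the pair changed in all 4 lines sampled in both classes (W43, W44, Richland and T157). RM38, sampled in the younger class, and W55, sampled in the later one, showed the order of their class.

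Single lines show the size of the turn. In W43 coats of 10-50, 25-50, 50-100, 300-400 and 400-500 mg seeds Glyma.13G035200 was at 199, 198, 214.8, 20.2 and 19.1 RPKM, and Glyma.04G240800 at 39.1, 65.7, 76.4, 138.6 and 131 RPKM. In Richland coats of 10-25, 50-100, 300-400 and 400-500 mg seeds Glyma.13G035200 was at 313, 139.2, 16.4 and 16.7 RPKM, and Glyma.04G240800 at 43.7, 86.3, 129.3 and 134 RPKM. In W43 the drop of Glyma.13G035200 lay between 100 and 300 mg, a range with no library. In Richland its value was already lower at 50-100 mg, with 1 library per weight. T157 went the other way, with 177 RPKM at 10-25 mg and 220 RPKM at 50-100 mg. Glyma.14G156400 was at 316 and 294 RPKM in these 2 Richland libraries, so an earlier drop in Richland is not established. Glyma.11G121800 stayed low, at 1.09 to 2.84 RPKM (median 2.07) in the younger coats and 0.502 to 1.38 RPKM (median 0.952) in the later ones, with overlapping ranges. The summed RPKM of the leaf genes was also lower at higher seed weight, at 495.5 to 1816 in coats of 10-100 mg seeds and 117 to 306 in coats of 300-500 mg seeds, and its part in these levels was not tested.

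**Figure D4:**
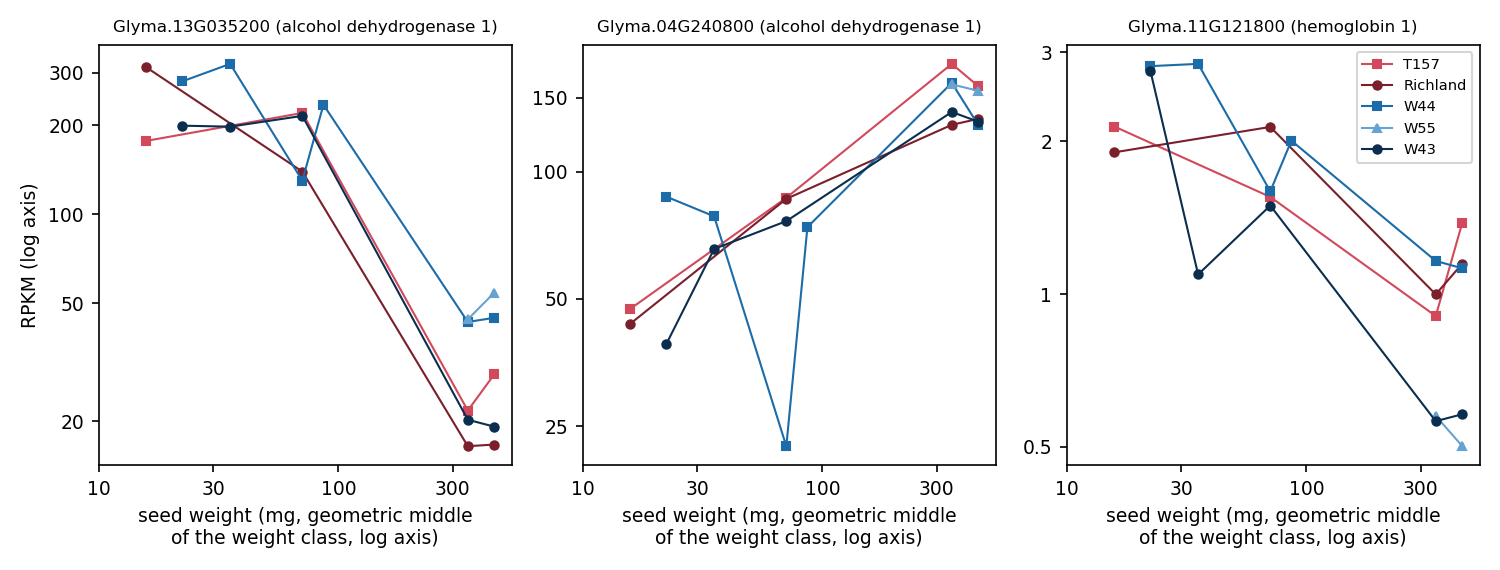
RPKM (log axis) of the 3 genes in seed coats against the seed weight (log axis, geometric middle of each weight class), 1 line per genotype and 1 point per library. Glyma.13G035200 lies between 130 and 322 in the 10-100 mg classes and at most at 54.3 from 300 mg, while Glyma.04G240800 lies at 129.04 or more from 300 mg; the low W44 point near 70 mg is the library with 56.2% of its alignments in undescribed models.

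The youngest coats, of 5-6 mg seeds, were the most uneven. Glyma.13G035200 was at 138 RPKM in UC508, 44.1 RPKM in UC9, 21.1 RPKM in UC501 and 0.419 and 0.548 RPKM in W55. Glyma.04G240800 was at 65.0 RPKM in UC508, 20.2 RPKM in UC9, 33.1 RPKM in UC501 and 2.10 and 2.36 RPKM in W55. Glyma.11G121800 was at 3.59 RPKM in UC508, 2.45 RPKM in UC9, 3.43 RPKM in UC501 and 0.542 and 0.767 RPKM in W55. As deposited, the W55 libraries were the lowest for all 3 genes. Scaled over alignments in described models alone, the longest models reached 3.67 and 2.83 RPKM for Glyma.13G035200 and 18.4 and 12.2 RPKM for Glyma.04G240800 in W55. These were still below the other 3 lines on that scale (23.3 or more and 22.5 or more). By its shorter-cDNA model, Glyma.13G035200 was at 10.4 and 6.81 RPKM in W55 as deposited, against 46.5 RPKM in UC501. Scaled, that model reached 91.0 RPKM in the first W55 library, while only 9.13% of UC501 alignments were undescribed. The second W55 library, at 6.81 RPKM with 80.6% of its alignments undescribed, stayed below UC501 on that scale. The order between W55 and UC501 thus turned only for this model, when scaled, and in the first W55 library. For Glyma.11G121800 the order turned, with 4.76 and 3.96 RPKM in W55, against 3.88 RPKM in UC508, 3.78 RPKM in UC501 and 2.74 RPKM in UC9.

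The defective-coat isoline UC508 differed from UC501 in the alcohol dehydrogenases and not visibly in the hemoglobin. Glyma.13G035200 was at 138 RPKM in UC508 (95% Poisson interval 136.6 to 139.03) and 21.1 RPKM in UC501 (20.6 to 21.7), 6.52-fold apart. This contrast was among those that chose the gene, so its place among the genes more than 4-fold higher in UC508 (4 genes, 0.0136% of 29403; 0.139% were more than 4-fold lower) is no support. Its other model gave a smaller difference, 201.6 RPKM in UC508 and 46.5 RPKM in UC501 (log2 2.09, against 2.65 for the longest model). Glyma.04G240800 differed less (log2 0.95), at 65.0 RPKM in UC508 (64.1 to 65.8) and 33.1 RPKM in UC501 (32.4 to 33.9). Glyma.11G121800 was at 3.59 RPKM in UC508 (3.34 to 3.85) and 3.43 RPKM in UC501 (3.14 to 3.75), so a difference was not detectable within counting error. With 1 library per line there is no replicate check, and the intervals cover counting error only.

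The paired copies followed the same order in UC508 and UC501. Glyma.14G156400 was at 297 RPKM in UC508 and 115 RPKM in UC501, and Glyma.06G122600 at 49.4 RPKM in UC508 and 29.4 RPKM in UC501. No gene of the other 7 low-oxygen lists passed 4-fold in either direction, and their median log2 differences lay between −0.06 and 0.21, against −0.05 over all genes. These include 9 pyruvate decarboxylase genes at −0.05 to 0.47 and 8 lactate or malate dehydrogenase genes at −0.11 to 0.13.

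Whole young seeds, leaves and the flower had little of either alcohol dehydrogenase. Whole seeds 5 days after flowering held 4.24 and 4.86 RPKM (W55), 6.93 RPKM (T157) and 4.66 RPKM (Richland) of Glyma.04G240800, and 0.0685 to 0.588 RPKM of Glyma.13G035200. Leaves held 4.02 RPKM (T157) and 6.06 RPKM (Richland) of Glyma.04G240800, and the flower 2.95 RPKM. The flower had 0.626 RPKM of Glyma.13G035200 and 0.185 RPKM of Glyma.11G121800, the lowest hemoglobin value of any library. Outside roots, Glyma.11G121800 was highest in leaves, at 6.01 RPKM (T157) and 13.4 RPKM (Richland), and in the T157 whole seed, at 6.65 RPKM. The next gene by ID, Glyma.11G121700, also described as hemoglobin 1, was at 6.84 RPKM in the T157 leaf and 39.5 RPKM in the Richland leaf but only 2.01 and 0.605 RPKM in roots flooded for 12 and 24 h.

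The 24 groups were placed in order of their mean. Many are single libraries, which have no spread, and the W43, W44, Richland and T157 coat groups pool young and late seed weights. Overlap between neighbouring groups therefore does not show how far apart tissues are. For Glyma.04G240800 the 2 flooded roots led, then the W55 root at 173 RPKM and the late W55 coats at 158 ± 4 RPKM (SD, n = 2). From there down to the 50-100 mg coat without hilum, the ranges of neighbouring groups overlapped. For Glyma.11G121800 both flooded roots and the W55 root led, followed by the Richland leaf, and from RM38 down to the late W55 coats each group's range overlapped with the next or, as a single library, lay inside it. For Glyma.13G035200 the 25-50 mg coat without hilum led, at 374 ± 47 RPKM (SD, n = 2), followed by RM38 at 313 RPKM and the 50-100 mg coat without hilum at 276 ± 64 RPKM (SD, n = 2), and the last 4 places were held by the W55 root, the W54 root and the leaves.

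The coats of pigmented mutants and their yellow counterparts were not used to choose the genes, so these differences were tested. T157 against Richland gave no difference past the threshold for any of the 3 genes. At 10-25, 50-100, 300-400 and 400-500 mg, Glyma.13G035200 was at 177, 220, 21.7 and 28.8 RPKM in T157, against 313, 139.2, 16.4 and 16.7 RPKM in Richland. It was higher in T157 in 3 of 4 weights (log2 0.24 ± 0.28 SE, limma adjusted p = 0.698). Glyma.04G240800 was at 47.4, 86.8, 180 and 160 RPKM in T157, against 43.7, 86.3, 129.3 and 134 RPKM in Richland. It was higher in 4 of 4 weights as deposited and 3 of 4 scaled over described models, with log2 0.21 ± 0.11 SE (limma adjusted p = 0.412). Glyma.11G121800 was at 2.14, 1.55, 0.905 and 1.38 RPKM in T157, against 1.90, 2.14, 0.999 and 1.15 RPKM in Richland, higher in 2 of 4 weights (log2 −0.03 ± 0.10 SE, limma adjusted p = 0.926).

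The background in T157 against Richland was 0% of 29080 genes higher and 0% lower (limma), with 4647 genes at an unadjusted p under 0.05 and a smallest adjusted p of 0.137. No gene of the 8 low-oxygen lists was called (limma), and 18 of 104 had an unadjusted p under 0.05. Glyma.14G156400 averaged 268 RPKM in T157 and 197 RPKM in Richland coats (log2 0.47 ± 0.16 SE, limma adjusted p = 0.268), and Glyma.06G122600 90.7 RPKM in T157 and 76.5 RPKM in Richland coats (0.21 ± 0.10 SE, adjusted p = 0.382). Here and below, each weight of a line is 1 library, and weights served as replicates.

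W44 against W43 was also without a call, and 1 library decided the direction of Glyma.04G240800. At 10-50, 25-50, 50-100, 300-400 and 400-500 mg, Glyma.04G240800 was at 87.3, 78.5, 22.4, 162.5 and 129.04 RPKM in W44, against 39.1, 65.7, 76.4, 138.6 and 131 RPKM in W43. The low value, 22.4 RPKM, comes from the 50-100 mg W44 library with 56.2% of its alignments in undescribed models, and a further W44 library of 75-100 mg seeds held 74.0 RPKM. The difference was log2 −0.03 ± 0.38 SE (limma adjusted p = 0.989) with that library and 0.40 ± 0.21 SE (adjusted p = 0.414) without it. Glyma.13G035200 was at 281, 322, 130, 43.2 and 44.7 RPKM in W44, against 199, 198, 214.8, 20.2 and 19.1 RPKM in W43, higher in 4 of 5 weights (log2 0.54 ± 0.34 SE, limma adjusted p = 0.862). Scaled over described models it was higher in 5 of 5 weights, and without the 50-100 mg W44 library the difference was log2 0.86 ± 0.16 SE (limma adjusted p = 0.218). Glyma.11G121800 was at 2.81, 2.84, 1.59, 1.16 and 1.12 RPKM in W44, against 2.76, 1.09, 1.495, 0.562 and 0.580 RPKM in W43, higher in 5 of 5 weights (log2 0.37 ± 0.16 SE, limma adjusted p = 0.858; 0.45 ± 0.14 SE, adjusted p = 0.29 without that library).

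The background in W44 against W43 was 0% of 28909 genes higher and 0% lower (limma), with 1658 genes at an unadjusted p under 0.05, and no list gene was called, with 15 of 105 at an unadjusted p under 0.05. Glyma.14G156400 averaged 404 RPKM in W44 and 308 RPKM in W43 coats (limma adjusted p = 0.869), and Glyma.06G122600 73.6 RPKM in W44 and 72.5 RPKM in W43 coats (adjusted p = 0.971).

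Late W55 coats held more Glyma.13G035200 than late W43 coats in both libraries, without passing the test. At 300-400 and 400-500 mg it was at 44.1 and 54.3 RPKM in W55, against 20.2 and 19.1 RPKM in W43, 2.18-fold and 2.84-fold apart. On the log2(RPKM + 1) scale these pairs differed by 1.09 and 1.46. The fit shared with W44 also draws its weight levels from W44 coats, so its estimate is not that of these pairs alone. In the fit shared with W44, in which weight is a block, the difference was log2 0.99 ± 0.49 SE (limma adjusted p = 1). Without the W44 library that stood apart in its undescribed alignments, the same fit gave log2 1.14 ± 0.21 SE (limma adjusted p = 0.115). The wide SE and high p-value of the full fit thus depended on that library, and neither fit passed the threshold. Glyma.04G240800 was at 161 and 156 RPKM in W55, against 138.6 and 131 RPKM in W43 (0.16 ± 0.56 SE, limma adjusted p = 1). Glyma.11G121800 was at 0.576 and 0.502 RPKM in W55, against 0.562 and 0.580 RPKM in W43 (−0.07 ± 0.23 SE, limma adjusted p = 1). The background was 0.0761% of genes higher and 0.228% lower, 22 and 66 genes, and was 0 of each without the 400-500 mg W55 library. No list gene was called (limma), with 5 of 105 at an unadjusted p under 0.05. Of the other alcohol dehydrogenase 1 genes, Glyma.14G156400 averaged 204 RPKM in W55 and 107 RPKM in W43 late coats (0.66 ± 0.64 SE, limma adjusted p = 1) and Glyma.06G122600 121 RPKM in W55 and 105 RPKM in W43 late coats (0.16 ± 0.52 SE, adjusted p = 1).

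**Figure D5:**
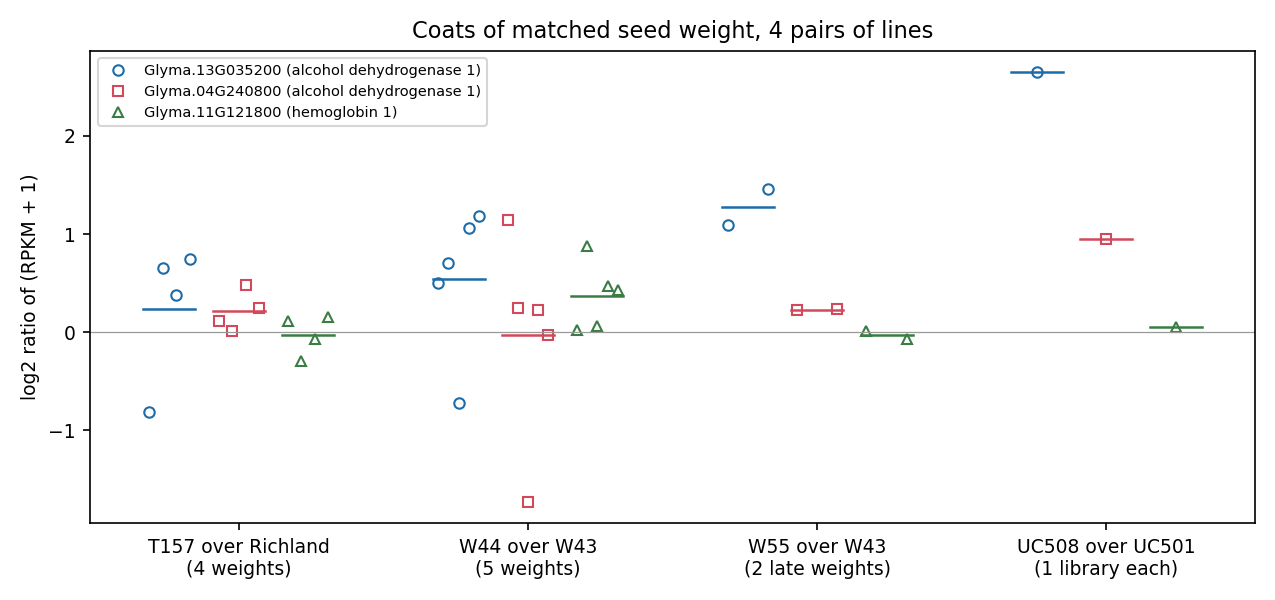
Log2 ratio of (RPKM + 1) between coats of matched seed weight, for T157 over Richland, W44 over W43, W55 over W43 and UC508 over UC501; points are pairs of libraries and bars their means. Most Glyma.13G035200 points lie above 0, while Glyma.11G121800 stays within 1 of it. Adding 1 shrinks the ratios of Glyma.11G121800, which is low in coats: its widest, 2.60-fold for W44 over W43 at 25-50 mg, is drawn at 0.88. No member passed the test in the first 3 comparisons, and UC508 over UC501 has no replicate.

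W55 coats of 5-6 mg seeds were set against W55 whole seeds of 5 days after flowering, the other comparison the choice of genes did not use. By the longest models only Glyma.04G240800 passed the filter, and its direction depended on the scaling. The shorter-cDNA model of Glyma.13G035200 was at 10.4 and 6.81 RPKM in the coats as deposited, against 0.104 and 1.09 RPKM in the whole seeds. No test is given for that model. Glyma.04G240800 was at 2.10 and 2.36 RPKM in the coats, against 4.24 and 4.86 RPKM in the whole seeds, a difference of log2 −0.78 ± 0.33 SE (limma adjusted p = 0.0201). The background in this comparison was 1.69% of 24841 genes higher and 95.5% lower, with a median of log2 −1.80, and the coats are the libraries with 88.6% and 80.6% of alignments in undescribed models. Rescaling by the median ratio gave log2 1.43 (adjusted p = 0.00287), and scaling over described models 1.35 (adjusted p = 0.00241), with 18.4 and 12.2 RPKM in the coats and 5.17 and 5.41 RPKM in the whole seeds. No direction can be given for Glyma.04G240800.

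Of the other alcohol dehydrogenase 1 genes, 2 met the same limit. As deposited, Glyma.06G122600 differed by log2 −1.07 ± 0.36 SE (limma adjusted p = 0.00323) and Glyma.14G121200 by −1.49 ± 0.32 SE (adjusted p = 4.73e-06), and both changed sign under either rescaling. Glyma.14G156400 was at a mean of 6.25 RPKM in the coats and 3.78 RPKM in the whole seeds (log2 0.82 ± 0.35 SE, limma adjusted p = 0.0205), and higher there under both rescalings (3.05, limma adjusted p = 0.000848, and 3.24, adjusted p = 0.00102). Without 1 of the whole seed libraries it was at −0.02 (adjusted p = 0.985). In the other lists, 6 of 7 pyruvate decarboxylase, 6 of 8 lactate/malate dehydrogenase and 4 of 6 sucrose synthase genes were lower, against 95.5% of all genes. So were 7 of 7 alanine or alanine:glyoxylate aminotransferase and 31 of 32 other zinc-binding alcohol dehydrogenase genes. Of 27 oxygen-sensing genes 23 were lower and 1 higher, and the 1 passing hemoglobin was lower.

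The 2 transcript models of Glyma.13G035200 were furthest apart in those W55 coats. The shorter-cDNA model was 1.17 to 3.04 times the longest model in the other libraries in which the longest was above 0.2 RPKM, with the highest ratios in UC9 (3.04), T157 whole seed (2.42) and UC501 (2.20). In the W55 coats of 5-6 mg seeds it was 24.8 and 12.4 times as high, at 10.38 and 6.81 RPKM against 0.419 and 0.548 RPKM. Reads that match both models can be counted in both rows, so these ratios are not shares of separate transcripts.

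Of the 6 alcohol dehydrogenase 1 genes, 4 fell into 2 pairs with like patterns. Glyma.06G122600 was 0.718 to 1.98 times Glyma.04G240800 over all 46 libraries (median 0.790). Glyma.14G156400 was 1.01 to 5.54 times Glyma.13G035200 (median 2.38) over the 33 libraries in which Glyma.13G035200 reached 5 RPKM. Where such copies are near identical, reads that match both would be counted in both, and the extent of that was not tested.

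Over the 38 libraries of the first table, which share tissues and lines, the gene with the pattern most like each alcohol dehydrogenase was its pair partner, among 17541 described genes reaching 10 RPKM. Glyma.14G156400 correlated with Glyma.13G035200 at Pearson r = 0.970 (Spearman rho 0.983; r = 0.969 without the flooded roots), on log2(RPKM + 1). Next came a cytochrome P450 of family 87 (Glyma.20G018600, 0.963), a class I glutamine amidotransferase-like gene (Glyma.13G271200, 0.958), a subtilisin-like endopeptidase gene (Glyma.06G022600, 0.955) and an EamA-like transporter gene (Glyma.20G094100, 0.951). In the hilum table, which the ranking did not use, Glyma.20G018600 averaged 11.9 RPKM in the hilum and 35.1 RPKM in the coat, whereas Glyma.13G271200 averaged 258 RPKM in the hilum and 197 RPKM in the coat. None of these 4 showed a gap between hilum and coat as wide as that of Glyma.13G035200, with Glyma.06G022600 at 1405 RPKM in the hilum and 2670 RPKM in the coat and Glyma.20G094100 at 7.63 and 16.9 RPKM.

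Glyma.06G122600 correlated with Glyma.04G240800 at Pearson r = 0.994 (Spearman rho 0.995; 0.993 without the flooded roots). The next were a type one protein phosphatase 4 gene (Glyma.10G186600, 0.948), a pyroglutamyl peptidase-like gene (Glyma.10G144800, 0.942), a gene described as ethylene-forming enzyme (Glyma.07G264200, 0.938) and aldehyde dehydrogenase 10A8 (Glyma.06G186300, 0.933). None of these 4 came near Glyma.04G240800 in flooded roots, where the highest, aldehyde dehydrogenase 10A8, was at 71.9 and 77.6 RPKM, against 128.3 and 84.9 RPKM in unflooded roots (W54, W55). For Glyma.11G121800 the 5 closest were the lipid-transfer-like genes Glyma.05G057800 (0.924), Glyma.17G140300 (0.918) and Glyma.17G140400 (0.916), a protein kinase gene (Glyma.07G096000, 0.916) and a bHLH gene (Glyma.14G178000, 0.915). These rest largely on the roots, since without the 2 flooded libraries r was 0.696 to 0.761 over 36 libraries, and Spearman rho over all 38 was 0.348 to 0.71. Unlike hemoglobin 1, the 3 lipid-transfer-like genes were higher after 24 h than after 12 h of flooding, for instance 562 against 437 RPKM for Glyma.05G057800.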

How the data were processed

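RPKM values (per M counted alignments) came from 2 tables deposited by the authors, of 38 and 8 libraries over 88647 transcript models; 4 columns that no label describes were left out. Reads were mapped with Bowtie per the submitters' processing notes; for its version, the genome build and the handling of multiple matches, the sources used here give nothing. RPKM times cDNA length gave whole reads (tolerance 0.01) for 100% of values, which gave each library's total, 18.1 to 545 M alignments. Where no read was counted the limit is 3 reads; it and the 95% Poisson intervals cover counting error only. RPKM were not turned into a count test. Differences were tested with limma 3.58.1 (R 4.3.3) on log2(RPKM + 1), so folds of low genes are understated, over genes whose mean in the fitted libraries reached 1 RPKM, with Benjamini-Hochberg adjusted p under 0.05, and the fit was tested on simulated data. Weight was a block in the coat series, and W44 and W55 shared 1 fit. In the 4 root libraries a gene counted as different when 2-fold apart in every pair, and between UC508 and UC501 when 4-fold apart. Of the 3 genes, 2 passed the filter in hilum and roots, 1 in W55 5-6 mg coats against whole seed and all 3 elsewhere.

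The 3 genes, the lists (by description) and the tests were chosen with earlier results of these data known. Up to 3 called genes per list with at least 5 RPKM in the higher group were named, and otherwise the 2 with the highest level. In coats of different lines and in young W55 coats the lists other than alcohol dehydrogenase 1 are given as counts. The patterns most like each gene were the 5 highest correlations. Hilum titles fall into 2 series of library numbers; deviations within a series correlated at 0.44 to 0.66 in each pair of groups, so the series were also fitted as a replicate block. Nothing says which libraries are separate plants, so p-values measure the spread between libraries only. Python 3.11.15 with scipy 1.17.1 (intervals), pandas 2.3.3 and matplotlib 3.10.9 (figures) did the rest.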

Additional observations from a re-analysis of the deposited data

How the results depend on the processing

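With the replicate block, the hilum differences stayed at log2 −4.33 for Glyma.13G035200 and 1.00 for Glyma.04G240800, with 5051 genes higher and 9712 lower, and it changed no call of a named gene. Over all 14 alternatives these 2 differences ranged from −4.53 to −3.95 and from 0.90 to 1.14. Same-numbered W55 coats and whole seeds deviated at r = −0.08. With 2 libraries per group this is a single correlation, so it cannot tell whether the numbers pair the libraries. With the number as a replicate block Glyma.04G240800 stayed at −0.78 (limma adjusted p = 0.00301), with 428 genes higher and 23540 lower. In roots the log2 difference ranged from 2.66 to 3.53 for Glyma.04G240800 and from 2.76 to 5.10 for Glyma.11G121800, and leaving out the 24 h library gave 3923 genes lower (2865 without the W55 root).

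The cause of the following changes was not tested. In W55 5-6 mg coats against whole seed, Glyma.04G240800 lost its call with a pseudocount of 0.1 (−0.99) and without either whole seed library (−0.86 and −0.70), and reversed under median ratio (1.43) and described scaling (1.35). Genes higher and lower there were 1113 and 36137 with no filter, 6047 and 3564 under the median ratio and 4826 and 9651 under described scaling. Reversed too were Glyma.14G121200 (0.57 and 0.36 under these scalings), Glyma.06G122600 (1.32 and 1.14) and, without 1 whole seed library, Glyma.14G156400 (−0.02, and 1.66 without the other; 3.05 and 3.24 under these scalings). In W44 against W43, Glyma.04G240800 reversed to 0.12 (median ratio), 0.15 (described scaling) and 0.40 without either 50-100 mg library (−0.32 to 0.40 over the left-out libraries), Glyma.06G122600 to 0.08, 0.11 and 0.32 (−0.34 to 0.32), and genes lower were 0 to 1 over the left-out libraries. Glyma.11G121800 in T157 against Richland reversed to 0.06 without either 50-100 mg library (range −0.10 to 0.06 over left-out libraries), and Glyma.14G140400 in the hilum to −0.03 and −0.04 without 1 of 2 libraries (up to 0.18 without another). Late W55 against W43 gave 5 genes higher and 0 lower with no filter, 1 and 5 under the median ratio, 2 and 5 under described scaling, and 0 to 28 and 0 to 120 over left-out libraries of these lines; leaving out a W44 library, which shares the fit, gave 6 to 38 higher and, without the 50-100 mg one, 6 lower (the other 4 gave 61 or more). UC508 against UC501 gave 64 genes lower with a pseudocount of 0.1. Glyma.13G035200 there was 2.70 with that pseudocount, 2.71 under the median ratio and 2.09 with its other model, and Glyma.04G240800 1.01 under the median ratio. Single libraries at roots, leaves, flower and 4 coat lines limit precision there.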

Other observations

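A list picked by description for oxygen sensing was mixed in roots. Of 51 passing genes described as DUF1637 (the family of plant cysteine oxidases, which mark transcription factors for breakdown when oxygen is present), as hypoxia-responsive or as AP2-related, 13 were at least 2-fold higher in every flooded over unflooded pair and 7 were lower, against 8.02% and 7.51% of all genes. Divided afterwards by description, 12 of 26 DUF1637 or hypoxia-responsive genes were higher and 2 lower, and 1 of 25 AP2-related or ethylene-responsive genes was higher and 5 lower; not all AP2-related genes are known to take part in oxygen sensing. Glyma.18G022000, a hypoxia-responsive family gene, was at 39.1 and 25.1 RPKM after 12 and 24 h of flooding, against 0.0822 (W54) and 0.199 RPKM (W55) in unflooded roots. The DUF1637 gene Glyma.19G115300 was at 117 and 53.1 RPKM in flooded roots, against 2.67 and 7.97 RPKM in unflooded roots, and Glyma.19G115600 at 102 and 45.6 RPKM in flooded roots, against 2.32 and 7.03 RPKM. Like Glyma.04G240800 and Glyma.11G121800, these 3 were lower after 24 h than after 12 h and higher in the W55 than in the W54 root. In the hilum 2 of 31 were higher and 4 lower (limma), shares under the 13.4% and 26.6% of all genes. Glyma.15G152000, an ethylene-responsive element binding protein gene, fell to 19.7 RPKM in the hilum, against 37.7 RPKM in the coat (limma adjusted p = 0.0142), while the DUF1637 gene Glyma.15G083700 rose to 9.12 RPKM in the hilum, against 5.27 RPKM in the coat (adjusted p = 0.00042). Glyma.03G177500, related to AP2.7, had 10.54 RPKM in the hilum and 7.49 RPKM in the coat (adjusted p = 0.02), a call lost under 5 of 14 alternatives (limma adjusted p up to 0.0624).

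Zinc-binding alcohol dehydrogenase descriptions other than alcohol dehydrogenase 1 covered 42 passing genes in roots, 8 higher and 5 lower when flooded. Glyma.06G222500 was at 0.118 and 0.189 RPKM in flooded roots, against 10.6 and 7.12 RPKM in unflooded roots, Glyma.19G008600 at 12.0 and 8.56 RPKM against 75.4 and 30.1 RPKM, and Glyma.01G116600 at 5.42 and 6.08 RPKM against 0.478 and 0.586 RPKM. In the hilum 5 of 38 rose and 6 fell (limma), shares no higher than the 13.4% and 26.6% of all genes. Glyma.10G262400 reached 59.2 RPKM in the hilum, against 17.9 RPKM in the coat (adjusted p = 2.72e-05), Glyma.20G128600 reached 62.1 RPKM in the hilum, against 19.8 RPKM in the coat (adjusted p = 3e-05), and Glyma.07G149400 had 0.490 RPKM in the hilum and 7.27 RPKM in the coat (adjusted p = 9.38e-05).

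Among haemoglobin 2 genes, Glyma.10G198900 was at 9.65 RPKM in the flower and at most 0.0478 RPKM in the roots, leaves, whole seeds, coats and hilum.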
